A study of Danio rerio with 12 samples.

Results

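The genes described here set the pace of cell division in the early zebrafish embryo: the A- and B-type cyclins, the kinase CDK1 that they activate, the Wee kinases that hold CDK1 back and the phosphatase cdc25b that releases it. They were taken from a list of 10 gene symbols, matched without regard to case to the Ensembl gene IDs of the tables, and 8 of the 10 had a value among 33737 gene IDs. The IDs that carry the symbols ccne2 and ccnd1, the genes of cyclins E2 and D1, are not analysed here. The 8 genes had an RPKM (reads scaled by gene length and library size) of at least 1 in all 6 tables, so each of them passed the filter on low values that left 17053 genes.

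Polyadenylated RNA of whole zebrafish embryos was sequenced at 2, 4 and 6 hours post fertilization (hpf), from embryos labelled homozygous for a mutation of ddx3xb, a gene of a DEAD-box RNA helicase, and from wild-type control embryos of the same ages. The labels list 12 samples, which form 6 groups of 2, and the series text calls the replicates biological. They do not give the mutation itself, whether the mothers were mutant, or how many embryos were pooled. The deposited tables hold 1 value per gene and group, so no replicate error, no test and no p-value can be given, and a difference is called here only by its size. Differences are of log2(RPKM + 1), and "past 1 log2" means at least 1 on that scale, which understates differences of low genes. It is not known which of these differences exceed the spread between the 2 samples of a group.

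RNA of the targeted gene ddx3xb stood at 0.70, 18.8 and 48.8 RPKM in mutant embryos at 2, 4 and 6 hpf, against 325, 318 and 194 RPKM in controls. As a check of stage, 6 egg RNAs and 7 genes of the blastula and gastrula with a value were read beside the cell cycle genes. At 4 hpf all 7 blastula and gastrula genes were lower in mutants by at least 1 log2, beside 6.31% of all genes, among them tbx16, a mesoderm T-box gene, at 8.91 RPKM in mutants and 55.1 RPKM in controls. At 6 hpf 3 of those 7, mixl1 (3.08), mxtx2 (2.83) and GSC (1.29), were higher in mutants and 0 lower. At that time mutants were past 1 log2 higher for 4 of the 6 egg RNAs, beside 18.3% of all genes, among them buc, an organizer of germ plasm, at 61.7 RPKM in mutants and 6.13 RPKM in controls. Genes of the egg list also lay on the other side, with differences of -0.77 for YBX1 at 6 hpf and -1.38 for DAZL at 2 hpf. YBX1 RNA was higher at 6 than at 2 hpf, at 1439 and 534 RPKM in mutants and 2452 and 571 RPKM in controls. Some of these calls depend on the settings. With the tables rescaled by trimmed means the differences at 6 hpf were 0.87 for GSC and -1.20 for krt4, another of the 7. For the egg RNAs ZAR1 and YBX1 they were then 0.91 and -1.20. With 5 in place of 1 added to the RPKM, the differences at 4 hpf were -0.79 for GSC and -0.64 for mixl1. The part of developmental stage in the results below was not tested. In whole embryos, a difference in the share of cells that hold an RNA and one in its amount per cell cannot be told apart. Nor can less of an RNA and a shorter poly(A) tail on it. RPKM is relative to the library, so less of an RNA and more of other RNAs cannot be told apart either.

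Cyclins of the A and B types bind CDK1 to drive cells into and through mitosis, and they are broken down at the end of each division. Wee kinases place an inhibitory phosphate on a tyrosine of CDK1, and CDC25 phosphatases remove it. The fertilized egg divides rapidly and in near synchrony on RNA and protein laid down by the mother. At the mid-blastula transition the cycles lengthen, gap phases appear and the embryo's own genome takes over. Vertebrates keep separate genes for some of these parts. In Xenopus, cyclin A1 is the form of the egg and early embryo and cyclin A2 that of later cells, and in mice Wee2 acts in the oocyte while Wee1 serves body cells. CCNA1 and WEE2 are called the egg forms below, and ccna2 and WEE1 the embryo forms, after these other species. RNA of ccna2 was abundant at 2 hpf here, which goes against its name.

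The 2 egg forms showed the largest genotype differences among the 8 genes, and these appeared at 6 hpf. CCNA1 (ENSDARG00000043236), which encodes cyclin A1, had 624, 512 and 211 RPKM in mutant embryos at 2, 4 and 6 hpf, against 875, 662 and 32.6 RPKM in controls. It was thus somewhat lower in mutants at 2 and 4 hpf and 6.47-fold higher at 6 hpf, with log2 differences of -0.49, -0.37 and 2.66. At 2 hpf its level was exceeded by only 0.258% of the 17053 genes in mutants and 0.158% in controls. At 6 hpf, 2.06% of genes exceeded it in mutants and 14.5% in controls. The level at 6 hpf was 33.8% of that at 2 hpf in mutants and 3.72% in controls.

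WEE2 (ENSDARG00000012718), the egg form of the inhibitory kinase, followed a similar course at a lower level, apart from the order of the genotypes at 4 hpf. It had 210, 186 and 62.8 RPKM in mutants at 2, 4 and 6 hpf, against 291, 168 and 8.27 RPKM in controls. Mutants were 7.59-fold higher at 6 hpf, and the log2 differences were -0.47, 0.14 and 2.78. The level at 6 hpf was 29.9% of that at 2 hpf in mutants and 2.84% in controls. Of all genes, 0.569% had a difference as far above 0 as CCNA1 at 6 hpf, and 0.405% one as far as WEE2. Those shares take in low genes, and none was computed among genes of a like level. With the tables rescaled by trimmed means the differences at 6 hpf were 2.24 for CCNA1 and 2.40 for WEE2, and with quantile normalization 2.20 and 2.44.

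The 2 embryo forms did not follow one course. Levels of ccna2 (ENSDARG00000011094), the gene of cyclin A2, were 174, 153 and 188 RPKM in mutants at 2, 4 and 6 hpf, against 328, 264 and 112 RPKM in controls. Its RNA was already abundant at 2 hpf in both genotypes, where 2.23% of genes exceeded it in mutants and 0.850% in controls. The log2 differences were -0.91, -0.78 and 0.74, none of them past 1 log2, although quantile normalization gave -1.04 at 2 hpf. At 6 hpf ccna2 was at 1.23 times its level at 4 hpf in mutants and at 0.425 times in controls. With trimmed-mean rescaling its difference at 6 hpf was 0.31.

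WEE1 (ENSDARG00000093864), the embryo form of the Wee kinase, was the lowest of the 8 genes at 2 hpf and was higher at each later time. It had 1.85, 8.64 and 43.5 RPKM in mutants at 2, 4 and 6 hpf, against 6.04, 22 and 43.2 RPKM in controls. Mutants thus held 30.6% of the control level at 2 hpf, 39.3% at 4 hpf and 101% at 6 hpf. The log2 differences were -1.31, -1.25 and 0.01. At these low levels the value added before taking logs decides the call: with 5 in place of 1 the differences at 2 and 4 hpf were -0.69 and -0.99, and with 0.1 they were -1.66 and -1.34. At 6 hpf WEE1 was 23.5-fold higher than at 2 hpf in mutants and 7.15-fold higher in controls. The difference at 6 hpf was -0.42 with trimmed-mean rescaling and -0.10 with quantile normalization, so its sign depends on the scaling.

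**Figure D1:**
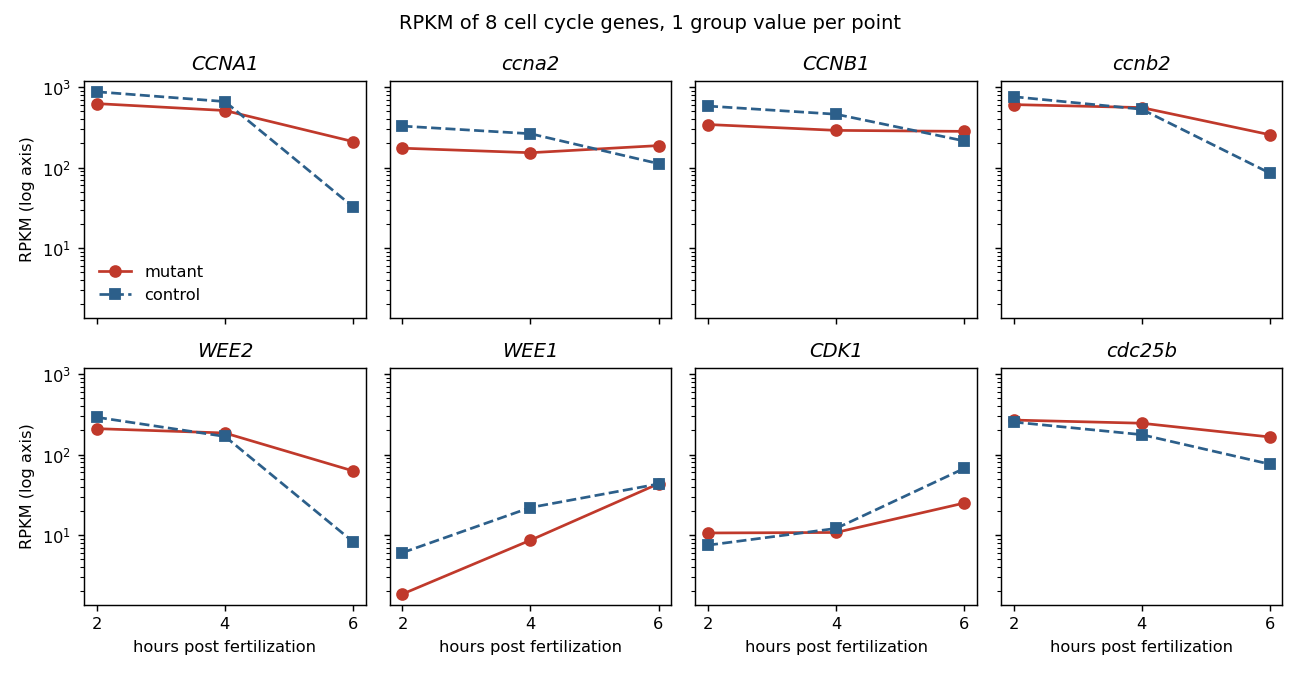
RPKM (log axis) of each of the 8 genes at 2, 4 and 6 hours post fertilization in mutant embryos (red circles, solid line) and control embryos (blue squares, dashed line). Each point is the authors' single value for a group of 2 samples, with no error available. CCNA1 and WEE2 separate at 6 hpf, with 211 and 62.8 RPKM in mutants against 32.6 and 8.27 RPKM in controls, while WEE1 meets at 43.5 and 43.2 RPKM.

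The paired forms were then set against each other within a table, as ratios and shares that a common rescaling of a table leaves unchanged. Their sums do move with such a rescaling, and are given below only as deposited. For cyclin A both forms were lower at 6 than at 2 hpf in controls, CCNA1 by far the more, while for the Wee kinases WEE1 was higher and WEE2 lower. CCNA1 made up 78.2%, 77.0% and 52.9% of the summed cyclin A RPKM in mutants at 2, 4 and 6 hpf, against 72.7%, 71.5% and 22.5% in controls. At 6 hpf the ratio of CCNA1 to ccna2 was therefore 1.12 in mutants and 0.291 in controls. The RNAs of cyclins A1 and A2 were thus close to equal in mutants, and cyclin A2 RNA led in controls. The log2 ratio was higher in mutants by 0.42, 0.41 and 1.95 at the 3 times (1.59 with quantile normalization at 6 hpf). The summed cyclin A RPKM was 798, 665 and 398 in mutants, against 1203, 925 and 144 in controls.

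WEE2 made up 99.1%, 95.6% and 59.1% of the summed Wee RPKM in mutants at 2, 4 and 6 hpf, against 98%, 88.4% and 16.1% in controls. In mutants WEE2 still exceeded WEE1 at 6 hpf, by 1.44 to 1, while in controls the ratio was 0.191. The log2 ratio of WEE2 to WEE1 was higher in mutants by 1.24, 1.49 and 2.92. At 2 and 4 hpf this came with the lower WEE1 in mutants, and at 6 hpf, where WEE1 as deposited was at nearly the same level in both genotypes, with the higher WEE2. With 1 added to each RPKM the difference at 2 hpf was 0.84. Summed Wee RPKM stood at 212, 194 and 106 in mutants, against 297, 190 and 51.5 in controls.

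**Figure D2:**
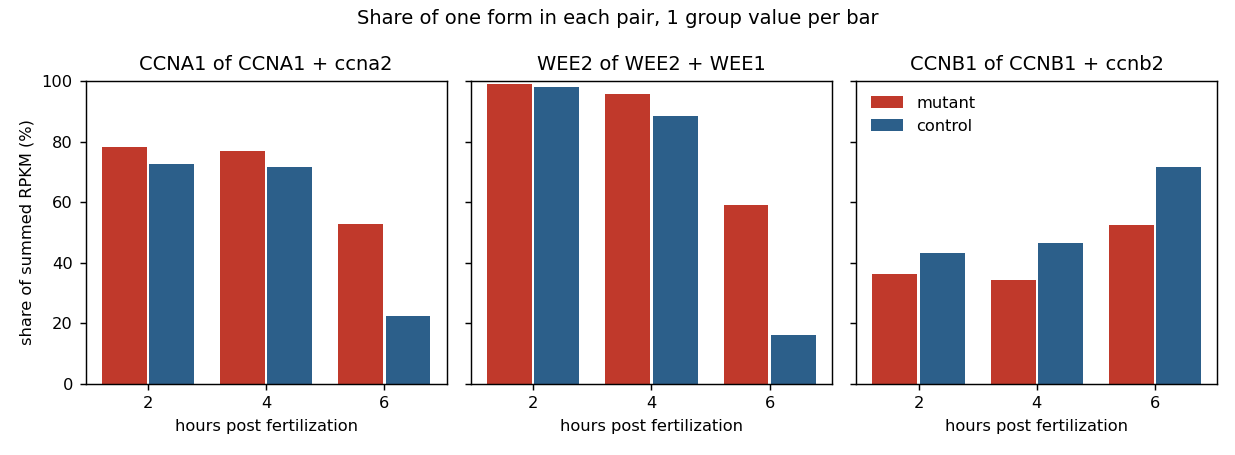
Share of summed RPKM (%) held by CCNA1 within cyclin A, by WEE2 within the Wee kinases and by CCNB1 within cyclin B at 2, 4 and 6 hours post fertilization, with mutant bars in red and control bars in blue. Each bar is 1 group value with no error available. At 6 hpf CCNA1 and WEE2 hold 52.9% and 59.1% in mutants against 22.5% and 16.1% in controls, and CCNB1 holds 52.4% in mutants against 71.5% in controls.

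The RNAs of the 2 B-type cyclins were both abundant at 2 hpf, and the ratio of CCNB1 to ccnb2 was lower in mutants at each time. Cyclin B1 and cyclin B2 both activate CDK1, and in mice cyclin B1 is the essential form. CCNB1 (ENSDARG00000051923) had 343, 290 and 282 RPKM in mutants at 2, 4 and 6 hpf, against 582, 461 and 215 RPKM in controls. As deposited, its level thus varied little with time in mutants, at 6 hpf 82.2% of that at 2 hpf, where controls kept 36.9%. With trimmed-mean rescaling its changes from 2 to 4 and from 4 to 6 hpf were -0.31 and 0.41 log2 in mutants. In controls they were then -0.40 and -0.27. The log2 differences, mutant minus control, were -0.76, -0.67 and 0.39, and trimmed-mean rescaling turned that at 6 hpf to -0.04. Mutants held 59.0% of the control level at 2 hpf.

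The partner gene ccnb2 (ENSDARG00000036180) had 607, 557 and 256 RPKM in mutants at 2, 4 and 6 hpf, against 760, 532 and 85.6 RPKM in controls. It was past 1 log2 in mutants at 6 hpf, with a difference of 1.57, a level 3.0-fold that of controls, and at -0.33 and 0.07 at 2 and 4 hpf. CCNB1 held 36.1%, 34.2% and 52.4% of the summed cyclin B RPKM in mutants, against 43.3%, 46.4% and 71.5% in controls. The mutant minus control difference in the log2 ratio of CCNB1 to ccnb2 was -0.44, -0.73 and -1.19 at 2, 4 and 6 hpf. With quantile normalization it was -0.49, -0.90 and -0.89, so it was then no larger at 6 than at 4 hpf. Among the A and B cyclins, ccnb2 came closest to the course of CCNA1.

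CDK1 (ENSDARG00000087554), the catalytic partner of these cyclins, ran the other way and was the only one of the 8 genes lower in mutants at 6 hpf in the tables as deposited. It had 10.6, 10.8 and 25 RPKM in mutants at 2, 4 and 6 hpf, against 7.49, 12.1 and 67.2 RPKM in controls. Mutants held 37.1% of the control level at 6 hpf, with log2 differences of 0.45, -0.15 and -1.39 at the 3 times. In mutants the level at 4 hpf was 1.01 times that at 2 hpf, and in controls 1.61 times. From 4 to 6 hpf it was 2.32-fold higher in mutants and 5.56-fold higher in controls. At 6 hpf trimmed-mean rescaling gave -1.83 and quantile normalization -1.34.

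CDK1 RNA was scarce next to that of its partner cyclins at 2 hpf. The RPKM of the 4 A and B cyclins together was 1748, 1512 and 937 in mutants at 2, 4 and 6 hpf, against 2545, 1918 and 445 in controls. That is 165, 140 and 37.5 RPKM of cyclin for each RPKM of CDK1 in mutants, against 340, 159 and 6.62 in controls. At 2 hpf 40.2% of genes stood above CDK1 in mutants and 45.7% in controls. The cyclin sums are as deposited and were not recomputed after rescaling. The ratios are of RNA and say nothing of protein. Within the cyclin sum CCNA1 held 22.5% in mutants and 7.32% in controls at 6 hpf, and CCNB1 held 30.1% in mutants and 48.3% in controls.

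Levels of cdc25b (ENSDARG00000010792), whose phosphatase reverses the action of the Wee kinases, differed least at 2 hpf and more at each later time. They were 269, 246 and 166 RPKM in mutants at 2, 4 and 6 hpf, against 254, 177 and 76.2 RPKM in controls. The log2 differences were 0.08, 0.47 and 1.11. The last is not past 1 log2 with trimmed-mean rescaling (0.68) or quantile normalization (0.92). The ratio of cdc25b to the summed Wee kinases was 1.27, 1.26 and 1.56 in mutants, against 0.855, 0.931 and 1.48 in controls.

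Counted over the 8 genes, 0 were higher and 1 (WEE1) was lower in mutants past 1 log2 at 2 hpf, where 4.14% of all genes were higher and 3.34% lower. At 4 hpf the counts were again 0 and 1, with WEE1 lower, beside 3.79% and 6.31% of all genes. At 6 hpf 4 were higher (CCNA1, WEE2, ccnb2 and cdc25b) and 1 was lower (CDK1), beside 18.3% and 8.91% of all genes. The median difference of the 8 genes was -0.48, -0.26 and 0.93 at 2, 4 and 6 hpf, against 0.01, 0.01 and 0.22 over all genes. Trimmed-mean rescaling moved the median of all genes at 6 hpf by -0.31 and left 3 of the 8 genes higher and 1 lower, beside 13% and 17.5% of all genes under that scaling. Quantile normalization also left 3 and 1, beside 14.9% and 13.5% of all genes.

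**Figure D3:**
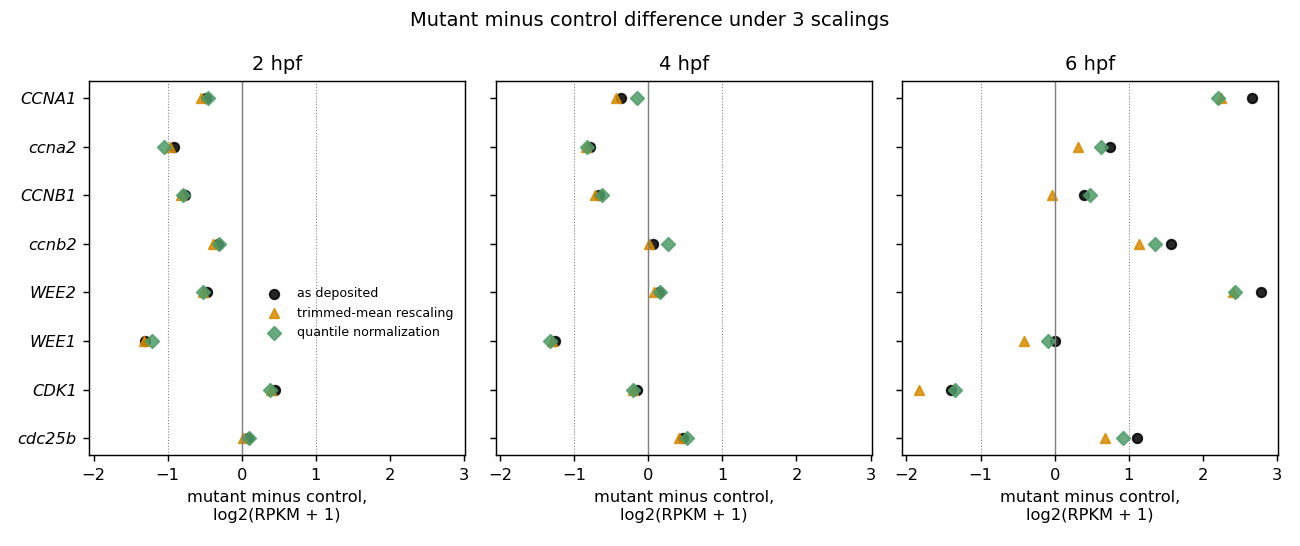
Mutant minus control difference of log2(RPKM + 1) for the 8 genes at 2, 4 and 6 hours post fertilization, from the tables as deposited (black circles), after trimmed-mean rescaling (orange triangles) and after quantile normalization (green diamonds). Solid lines mark 0 and dotted lines 1 log2 either way. CCNA1, WEE2 and ccnb2 lie beyond 1 and CDK1 beyond -1 at 6 hpf under all 3, while CCNB1 lies at 0.39 as deposited and at -0.04 after trimmed-mean rescaling.

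Between 2 and 4 hpf 7 of the 8 genes stayed within 1 log2 in each genotype. In mutants 1 of the 8 genes, WEE1, was past 1 log2 higher at 4 than at 2 hpf and 0 were lower, beside 3.21% and 0.264% of all genes. In controls it was again WEE1 alone and 0 lower, beside 8.79% and 2.84% of all genes. The other RNAs abundant at 2 hpf kept between 82.1% and 91.9% of their level in mutants and between 57.8% and 80.4% in controls, with WEE2 lowest in controls.

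In controls as deposited, each gene except WEE1 changed more from 4 to 6 hpf than from 2 to 4 hpf. WEE1 changed by 1.71 log2 in the first interval and by 0.94 in the second. With trimmed-mean rescaling WEE1 changed by 1.63 and then 1.75. Under that scaling CCNB1 (-0.40, then -0.27) and cdc25b (-0.58, then -0.39) changed less in the second interval. In mutants 2 genes (WEE1 and CDK1) were past 1 log2 higher and 3 (CCNA1, ccnb2 and WEE2) lower at 6 than at 4 hpf, beside 12.3% and 18.9% of all genes. In controls 1 gene (CDK1) was higher and 6 were lower, all of the RNAs abundant at 2 hpf, beside 17.3% and 35.1% of all genes. With trimmed-mean rescaling these counts were 2 and 1 in mutants, beside 16.9% and 6.8% of all genes, and 2 and 3 in controls, beside 29.3% and 20.5%. CCNA1 at 6 hpf was at 0.411 of its level at 4 hpf in mutants and at 0.0492 in controls, and WEE2 at 0.338 in mutants and 0.0492 in controls.

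The genotype difference thus shifted between 4 and 6 hpf, by 3.03 log2 for CCNA1, 2.64 for WEE2, 1.52 for ccna2, 1.5 for ccnb2, 1.26 for WEE1, 1.06 for CCNB1, 0.64 for cdc25b and -1.24 for CDK1. So 6 genes shifted upward and 1 downward by at least 1 log2, beside 17.9% and 8.19% of all genes, and no test of these shifts was possible. With trimmed-mean rescaling the shifts of WEE1 and CCNB1 were 0.88 and 0.69. From 2 to 4 hpf 0 of the 8 shifted by that much either way, beside 1.38% and 4.53% of all genes.

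The mutant level at 6 hpf lay between the control levels at 4 and 6 hpf for 7 of the 8 genes. WEE1, the gene outside, was not past 1 log2 between those controls, and all 7 that were past it lay in between. This is near the background: of 8946 genes past 1 log2 between those control tables, 87.7% had a mutant value in between. Measured on the log2 scale from the control at 4 hpf towards that at 6 hpf, mutants at 6 hpf stood at 33.6% of the way for WEE2, 38.3% for CCNA1, 39.7% for ccna2, 40.0% for ccnb2, 41.5% for CDK1 and 64.3% for CCNB1. The 2 others stood at the ends, cdc25b at 7.89% and WEE1 at 101%. Over the 8946 genes the median was 49.3%. With trimmed-mean rescaling 6 of the 8 lay in between, cdc25b and CCNB1 falling outside, and with quantile normalization 8 of the 8. The share of all genes in between was not computed under these 2 scalings, so those counts have no background beside them.

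The genes closest to the members in their 6 values were sought among 8364 genes that carry a symbol and reach an RPKM of 5 in 1 table or more. The measure was the root mean square distance between the log2 values of the 6 groups, each gene centred on its mean. The closest to CCNA1 were BAG4 (0.12 log2), rgs14a (0.17) and WEE2 itself (0.18). The closest to WEE2 were CTSZ (0.15), FBXL2 (0.16) and CCNA1 (0.18). In both directions the other egg form took rank 3. By contrast ccna2 ranked 3668 from CCNA1, and WEE1 ranked 7861 from WEE2. The closest to CDK1 were rsrp1 (0.14), wipf3 (0.14) and inavaa (0.14).

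BAG4, a gene of a chaperone cofactor, had 149, 133 and 44.1 RPKM in mutants at 2, 4 and 6 hpf, against 184, 145 and 7.43 RPKM in controls. Near CDK1, rsrp1 had 15.8, 16.1 and 41.4 RPKM in mutants, against 15.3, 20.2 and 109 RPKM in controls. In both cases the genotypes lay furthest apart at 6 hpf, BAG4 with mutants higher and rsrp1 with mutants lower. Both genes were picked by these same 6 values, so this likeness to CCNA1 and CDK1 follows from the choice and is no separate result.

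Other genes of the division cycle, in 7 lists with 65 genes that passed the filter, were read beside the 8 genes above, with no test of a difference between the groups of genes. Coverage was partial, as every list had symbols without a value. Of 9 symbols of CDK inhibitors and inhibitory kinases 5 had one, and of 21 of the anaphase promoting complex 14. At 2 hpf 3 of the 65 were higher in mutants and 2 lower by at least 1 log2, at 4 hpf 2 and 4, and at 6 hpf 7 and 5. Their medians were -0.05, -0.06 and -0.11, against 0.01, 0.01 and 0.22 over all genes. With trimmed-mean rescaling or quantile normalization more of the 65 were lower than higher by at least 1 log2 at 6 hpf. The shares of all genes past 1 log2 are those given above.

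Of 10 other cyclin, CDK and CKS genes, 0 were past 1 log2 at 2 or 4 hpf, and 1 was lower at 6 hpf. That was cks2, of a small CDK-binding protein, at 0.26 RPKM in mutants and 1.89 RPKM in controls. Of 2 IDs that carry the symbol cks2, only this 1 had a value. Next came ccnb3, the gene of cyclin B3, at 34.2 RPKM in mutants and 58.4 RPKM in controls. With trimmed-mean rescaling its difference was -1.18, and 2 of the 10 were then past 1 log2 lower at 6 hpf. The largest positive differences were of ccnd3, a D-type cyclin gene, at 9.08 RPKM in mutants and 4.28 RPKM in controls (0.93), and of CDK2, a kinase of S phase entry, at 60.0 RPKM in mutants and 33.4 RPKM in controls (0.83).

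Of 4 genes of CDK inhibitors and inhibitory kinases, cdkn1a, the p21 gene and a target of p53, was higher at 6 hpf, at 9.62 RPKM in mutants and 2.21 RPKM in controls. The p57 gene cdkn1ca was lower at 4 hpf, at 6.62 RPKM in mutants and 20.3 RPKM in controls, and at 49.7 RPKM in mutants and 60.3 RPKM in controls at 6 hpf. The gene pkmyt1, of a membrane-bound kinase that also inhibits CDK1, was at 2.52 RPKM in mutants and 3.15 RPKM in controls at 6 hpf. CDKN2C stayed near or below 1 RPKM in all groups, between 0.19 and 1.15 RPKM.

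Among 7 genes of mitotic entry, MOS, a kinase that holds the egg in meiotic arrest, was higher in mutants at 6 hpf, at 6.81 RPKM in mutants and 1.45 RPKM in controls. At 2 and 4 hpf MOS was at 23.9 and 20.3 RPKM in mutants, against 43.9 and 37.2 RPKM in controls. Its order of genotypes at the 3 times was that of CCNA1. The second phosphatase gene cdc25d was low, and at 2 hpf it was past 1 log2 lower, at 0.09 RPKM in mutants and 1.89 RPKM in controls. At 6 hpf mastl, a kinase that protects mitotic phosphates, was at 12.0 RPKM in mutants and 7.30 RPKM in controls. The mitotic kinase genes plk1 and aurka were at 102 and 61.7 RPKM in mutants, against 120 and 84.3 RPKM in controls.

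The anaphase promoting complex, which marks cyclins for breakdown, had 14 genes with values. At 2 hpf 3 of its subunit genes were higher in mutants and 0 lower. ANAPC10 was at 56.5 RPKM in mutants and 17.7 RPKM in controls, CDC26 at 60.4 RPKM in mutants and 22.3 RPKM in controls, and ANAPC1 at 9.43 RPKM in mutants and 3.73 RPKM in controls. At 4 hpf ANAPC10 and CDC26 were still past 1 log2 higher, and fbxo5, which encodes the inhibitor Emi1, was lower, at 63.0 RPKM in mutants and 143 RPKM in controls. At 6 hpf 0 of the 14 were past 1 log2 either way, with CDC27 (0.75) and CDC16 (0.53) at the top and ANAPC13 (-0.85) and CDC23 (-0.68) at the bottom. With trimmed-mean rescaling 2 of the 14 were lower at 6 hpf.

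Of 12 genes of the spindle checkpoint and the chromosome passengers, 4 were higher and 2 lower at 6 hpf. The counts were 2 and 3 with trimmed-mean rescaling, and 2 and 1 both with quantile normalization and with 5 added to the RPKM. The survivin gene birc5b was at 11.1 RPKM in mutants and 2.45 RPKM in controls, and the checkpoint gene mad1l1 at 44 RPKM in mutants and 15 RPKM in controls. Its partner MAD2L1 was on the other side, at 46.9 RPKM in mutants and 97.8 RPKM in controls. BUB3, another checkpoint gene, was at 36.4 RPKM in mutants and 92.6 RPKM in controls at 6 hpf, and at 4.34 RPKM in mutants and 13.5 RPKM in controls at 4 hpf. The securin gene pttg1 was lower at 2 hpf, at 21.9 RPKM in mutants and 59.2 RPKM in controls.

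Of 15 genes of the RB, E2F and MuvB group, which govern transcription of cell cycle genes, 0 were higher and 2 lower at 6 hpf, or 4 lower with trimmed-mean rescaling or quantile normalization. The gene e2f2 was at 5.83 RPKM in mutants and 27.9 RPKM in controls, and the MuvB subunit gene LIN52 at 2.26 RPKM in mutants and 6.88 RPKM in controls. At the other end lin37 (0.82) and E2F5 (0.52) stayed within 1 log2. E2F7, an E2F family repressor, was lower at 4 hpf, at 0.76 RPKM in mutants and 5.92 RPKM in controls. The 3 checkpoint kinase genes with values, ATR, ATM and chek2, had differences of 1.05, 0.92 and 0.64 at 6 hpf, and with trimmed-mean rescaling 0 of them were past 1 log2.

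For several of these genes, which were low or lay close to 1 log2, the call was lost with 5 in place of 1 added to the RPKM. Among the genes named above, the differences were then -0.39 for cks2, 0.87 for MOS, -0.99 for MAD2L1, -0.71 for LIN52 and 0.39 for ATR at 6 hpf. At 4 hpf they were -0.99 for BUB3 and -0.92 for E2F7, and at 2 hpf -0.44 for cdc25d and 0.72 for ANAPC1. ANAPC1 at 2 hpf was also just short of 1 log2 with quantile normalization (0.99), and MAD2L1 at 6 hpf was at -0.96.

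**Figure D4:**
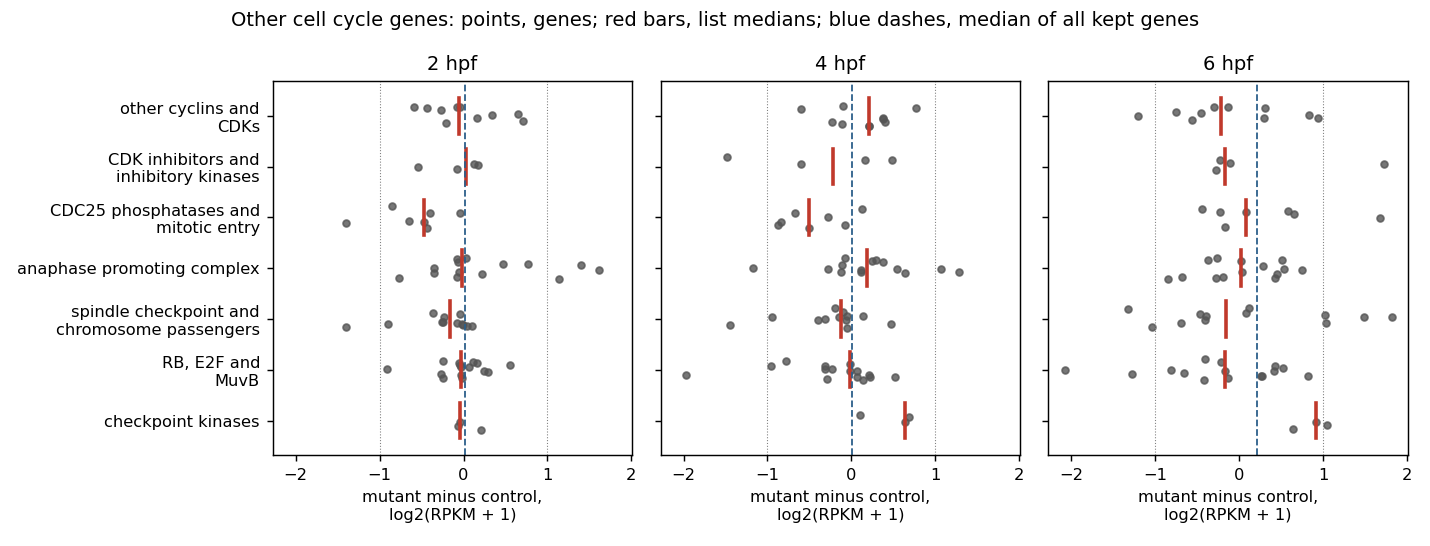
Mutant minus control difference of log2(RPKM + 1) at 2, 4 and 6 hours post fertilization for 65 other cell cycle genes in 7 lists. Grey points are genes (spread vertically at random within a list), red bars list medians, blue dashes the median of all 17053 genes, and dotted lines 1 log2 either way. At 6 hpf, in the tables as deposited, 7 of the 65 genes lie beyond 1 and 5 beyond -1.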

How the data were processed

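The authors deposited 6 tables, 1 per genotype and time, each with an RPKM value for 33737 Ensembl gene IDs. Each table's name gives a genotype and an hour, which match 1 group of the labels. Per the submitters' processing notes, cutadapt 1.13, Trimmomatic 0.36, HISAT2 2.0.5, SAMtools 1.9 and the build Zv9 were named, without roles. Libraries were made with a stranded kit, per the labels' protocols. How reads were counted, how the 2 samples of a group were combined and the depth of each library were not given in the sources used here. In each table the smallest value above 0 was between 0.00072 and 0.00122 RPKM, far below every value of the 8 genes.

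Symbols came from a table of gene IDs and symbols, which held 21939 of the IDs. Genes were kept that reached an RPKM of 1 in 1 table or more. Values were compared as log2(RPKM + 1) with Python 3.11.15, numpy 2.4.6 and pandas 2.3.3, and a gene was counted from 1 log2 up. Alternatives were an added value of 0.1 or 5, trimmed-mean rescaling (30% of ratios and 5% of levels trimmed on each side, unweighted), quantile normalization, other filters and a threshold of 1.5-fold. The functions were tested on simulated tables. All 8 genes are named. Of the 7 other cell cycle lists, the 2 highest and 2 lowest genes at 6 hpf and any past 1 log2 at 2 or 4 hpf are named, and 3 nearest genes for CCNA1, WEE2 and CDK1. The stage genes named as examples were chosen after their values were seen. The 8 genes and the lists were chosen with earlier results of these data known. No sequences are shown.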

Additional observations from a re-analysis of the deposited data

Results flagged for a closer look

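Several of the 8 genes stood on opposite sides of the control level at different times, with at least 0.25 log2 on each side and at least 1 log2 between the times. With 1 value per group, none of these changes of sign was tested. The mutant minus control difference of CCNA1 was greater at 6 hpf than at 2 hpf by 3.14 log2 and than at 4 hpf by 3.03. That of WEE2 was greater at 6 hpf than at 2 hpf by 3.25. For ccnb2 the difference at 6 hpf exceeded that at 2 hpf by 1.9. The difference of ccna2 at 6 hpf exceeded that at 2 hpf by 1.65 and that at 4 hpf by 1.52. CCNB1 had corresponding values of 1.15 and 1.06, but its difference at 6 hpf was -0.04 with trimmed-mean rescaling, so its change of sign rests on the scaling. CDK1 went the other way, below the control level at 6 hpf and above it at 2 hpf, with -1.85 between them.

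Only ccna2 was higher at 6 than at 4 hpf in mutants and lower in controls by at least 0.25 log2 each, and its 2 changes over that interval differed by 1.52 log2. This holds for the tables as deposited. With trimmed-mean rescaling CCNB1 did so too (0.41 in mutants, -0.27 in controls), and with quantile normalization ccna2 was higher by only 0.11 in mutants.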

How the results depend on the processing

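No paired analysis was possible because each table holds 1 value for both samples of a group. For the same reason no replicate could be left out. With 0.1 in place of 1 added to the RPKM, none of the counts of the 8 genes moved by over 1.5 times and none of their shifts crossed 1 log2. Paired ratios were not run with 0.1. Among the other cell cycle lists some counts moved with 0.1, such as RB, E2F and MuvB genes lower at 4 hpf (3) and checkpoint kinase genes higher at 6 hpf (2). With 5 added, 0 genes were lower in mutants at 2 hpf and 0 at 4 hpf, 0 were higher at 4 than at 2 hpf in mutants, 1 was higher at 6 than at 4 hpf in mutants, and the shift of WEE1 from 4 to 6 hpf was 0.99. With trimmed-mean rescaling 1 gene was lower at 6 than at 4 hpf in mutants, 2 were higher and 3 lower in controls, and the shifts of CCNB1 and WEE1 were 0.69 and 0.88. With quantile normalization 2 genes were lower in mutants at 2 hpf, 2 were higher at 6 than at 4 hpf in controls, and the log2 ratio of CCNB1 to ccnb2 differed by -0.89 at 6 hpf. With 1 added to both RPKM values the ratio of WEE2 to WEE1 differed by 0.84 at 2 hpf. With a threshold of 1.5-fold, 3 genes were lower in mutants at 2 hpf and 3 at 4 hpf, and in controls 2 were higher and 1 lower at 4 than at 2 hpf and 2 higher at 6 than at 4 hpf. The causes of these moves were not tested. Shares of all genes were not computed at 1.5-fold, nor with 0.1 or 5 added. The counts of the 8 genes at those settings therefore have no background beside them. No single difference past 1 log2 changed its sign under these alternatives. The shares of all genes past 1 log2 were within 1.5 times of those given when an RPKM of 1 was asked of 2 tables, and further off without a filter, which adds genes at or near 0.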
